A study of Triticum aestivum with 6 samples.

Results

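The soluble starch synthase genes SSI, SSIIa and SSIIIa were examined in wheat endosperm, with 8 genes taken by their identifiers out of 127196 genes in the expression table. They were SSI on chromosomes 7A (TraesCS7A01G120300), 7B (TraesCS7B01G018600) and 7D (TraesCS7D01G117800), SSIIa on 7A (TraesCS7A01G189100) and 7D (TraesCS7D01G190100), and SSIIIa on 1A (TraesCS1A01G091500), 1B (TraesCS1B01G119300) and 1D (TraesCS1D01G100100). The libraries came from field-grown grains of the winter wheat cultivar Zhoumai36 at 25 days after anthesis, taken from florets in the middle of the spike. The innermost endosperm (IE, labelled inner) is the lobe centres of the middle section of the grain, and the remaining endosperm (RE, labelled outer) is what was left of that section without the pericarp, a mixture of starchy endosperm and aleurone. Each region had 3 libraries, described by the study as biological replicates. A nitrogen level is missing from the labels of all 6 and was left unassigned, and the other libraries of the study were not analysed here. Because RNA came from whole pieces of tissue, fewer cells of a type and less RNA per cell cannot be told apart.

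Soluble starch synthases add glucose from ADP-glucose to the growing chains of amylopectin, the branched part of starch, inside the amyloplasts of the endosperm. SSI mainly makes short chains, SSIIa extends them to intermediate length, and SSIIIa makes longer chains. Wheat lacking all SSIIa proteins has starch with a raised share of amylose. As a hexaploid, bread wheat carries A, B and D copies (homoeologs) of most genes, and SSI and SSIIIa are listed here with all of them.

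Expression is given as FPKM, the fragments of a gene scaled to its length and to the size of the library. The library totals behind the FPKM values lay between 13959933 and 21766392 fragments, and the starch synthase genes had from 17 to 2667 fragments each. Where 3 values are listed for a region, they are those of replicates 1, 2 and 3. The gliadin gene named by the study, TraesCSU01G153800, was present in every library (44.7, 31.9 and 50.4 FPKM in IE against 21.1, 24.4 and 25.5 FPKM in RE), which checks for starchy endosperm. No gene marking the aleurone is annotated in the sources, so the aleurone in RE was not checked. The globulin gene TraesCS4D01G171800 set IE replicate 2 apart from the other IE libraries. It was measured at 160, 403 and 186 FPKM in IE, against 356, 372 and 547 FPKM in RE. IE replicate 2 thus lay among the RE values. The other globulin gene named by the study, TraesCS7D01G351300, also had its highest IE value there. Its values were 1.70, 6.22 and 0.663 FPKM in IE, against 6.63, 2.01 and 2.93 FPKM in RE. For the gliadin gene, IE replicate 2 was the lowest IE library but lay above every RE library. All 8 starch synthase genes had their lowest IE value in this library, at 0.337 to 0.611 times the mean of the other 2 IE libraries, while the median of this ratio over the genes tested was 1.16. Of all genes tested, 25.9% had their lowest IE value there. What sets IE replicate 2 apart was not tested, and results are given with and without it.

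The length that each gene was given could be recovered from the steps of the FPKM values. It was 1935, 1566 and 1968 bases for SSI on 7A, 7B and 7D, 4890, 5129 and 4941 bases for SSIIIa on 1A, 1B and 1D, and 2400 bases for SSIIa on 7D. TraesCS7A01G189100, the 7A gene listed for SSIIa, had only 1669 bases. It also had only 17 to 48 fragments per library, against 758 to 1687 for the 7D gene. Its length goes against a full-length 7A counterpart of the 7D gene, which a low level alone would not. This entry is called by its identifier below. The entry next to it in number, TraesCS7A01G189000, had 2391 bases, with 10.1, 3.32 and 7.70 FPKM in IE against 9.56, 11.3 and 7.03 FPKM in RE. TraesCS7B01G093800 had 2397 bases, with 45.0, 19.9 and 45.1 FPKM in IE against 30.7, 37.7 and 18.8 FPKM in RE. These 2 entries were picked after their values were seen, no source used here gives them a name, and they are in none of the sums.

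SSI was the most abundant of the enzymes as listed. The FPKM of its 3 homoeologs summed to 223, 123 and 206 in IE, against 167, 220 and 189 in RE. This was between 77.3% and 89.7% of the summed FPKM of the 8 genes in each library, a share that covers the listed genes only and would be lower with the 2 unlisted entries counted. The sums of the listed SSIIa genes were 44.0, 18.2 and 45.9 FPKM in IE, against 25.6, 27.4 and 16.5 FPKM in RE. Those of SSIIIa were 11.0, 4.49 and 14.7 FPKM in IE, against 6.34, 9.02 and 5.31 FPKM in RE. The order SSI over SSIIa over SSIIIa held in every library of both regions. All 3 sums overlapped between the regions. Without IE replicate 2, those of SSIIa and SSIIIa lay above every RE library in both remaining IE libraries, and that of SSI still overlapped.

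Among single genes, SSI-7B had the highest mean level, 84.5 FPKM over the 6 libraries, which was above that of 98.1% of the genes tested. SSI-7D (54.3 FPKM), SSI-7A (49.2 FPKM), SSIIa-7D (28.5 FPKM), SSIIIa-1A (5.28 FPKM) and SSIIIa-1D (2.26 FPKM) followed, each above the next in 6 of 6 libraries. TraesCS7A01G189100 (1.04 FPKM) and SSIIIa-1B (0.945 FPKM) were the lowest and took different places in the regions. SSIIIa-1B was the higher of them in all 3 IE libraries, and TraesCS7A01G189100 was the higher in all 3 RE libraries. The mean level of SSIIIa-1B exceeded that of only 20.3% of the genes tested.

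**Figure D1:**
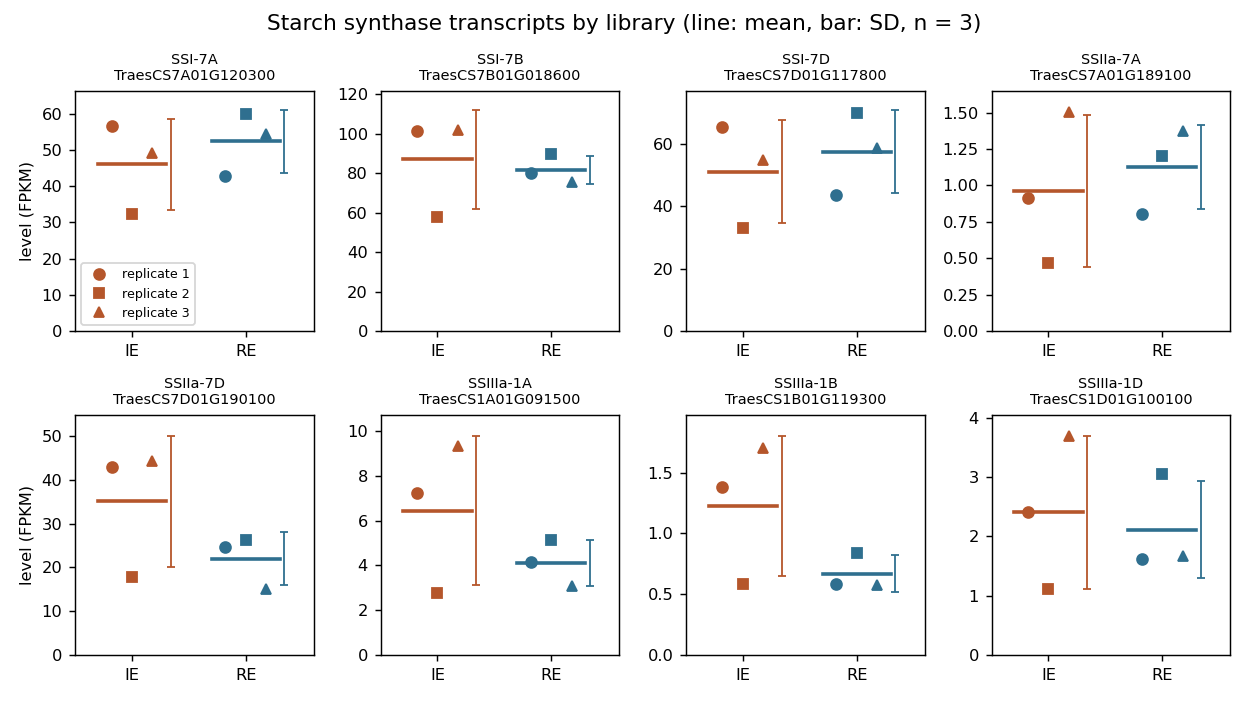
Level of each starch synthase gene in FPKM (vertical axes, each starting at 0) in the IE and RE libraries, with 1 marker per library, the mean as a line and the SD as a bar (n = 3). IE replicate 2 (square) is the lowest IE value in all 8 panels, and the IE and RE values overlap in every panel. The panel named SSIIa-7A is TraesCS7A01G189100.

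The comparison between IE and RE asked whether the starch synthase transcripts differ between the inner and the outer endosperm. No difference beyond the spread between replicates was found for any of the 8 genes. With limma on log2(FPKM + 0.1), 0 of the 8 reached the limits of a 2-fold change and a Benjamini-Hochberg adjusted p of 0.05 or less, as did 0.0% of the 51830 genes tested, those whose mean was 0.5 FPKM or more. All 8 passed that filter, and limma's voom on the recovered fragments also called 0. At an unadjusted p of at most 0.05, 0 of the 8 passed, against 10.0% of all genes, and 5.75% of all genes also changed at least 2-fold (1.64% higher and 4.11% lower in IE). The IE and RE values overlapped for all 8 genes, whereas 16.3% of all genes showed no overlap (4.35% higher and 11.9% lower in every IE library). Two-sided exact permutation tests of the single genes gave p-values from 0.2 to 1, where 3 libraries against 3 cannot give less than 0.1. The median log2 fold change of the 8 genes was 0.07, beside -0.12 over all genes tested, with 5 genes above 0 and 3 below.

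The SSI genes had similar mean levels in the regions. SSI-7A stood at 56.6, 32.3 and 49.1 FPKM in IE, against 42.9, 59.9 and 54.4 FPKM in RE. SSI-7D stood at 65.3, 33.1 and 55.0 FPKM in IE, against 43.8, 70.1 and 58.9 FPKM in RE. For both, RE replicate 2 was the highest and IE replicate 2 the lowest of the libraries. Their log2 fold changes were -0.21 (standard error 0.27, limma adjusted p = 0.824) for SSI-7A and -0.20 (standard error 0.31, limma adjusted p = 0.864) for SSI-7D. SSI-7B stood at 101, 58.1 and 102 FPKM in IE, against 80.2, 89.7 and 75.6 FPKM in RE. Here IE replicates 1 and 3 lay above every RE library and IE replicate 2 below every RE library. SSI-7B had a fold change of 0.05 on the log2 scale (standard error 0.27, limma adjusted p = 0.968), whose sign turned with another scaling of the libraries. Its 95% interval ran from -0.57 to 0.67, and those of SSI-7A and SSI-7D from -0.83 to 0.41 and from -0.92 to 0.52, so that a 2-fold difference in either direction lay outside all 3 intervals with all 6 libraries. This did not hold throughout, since without IE replicate 1 the lower bound was -1.07 for SSI-7A and -1.20 for SSI-7D. Without IE replicate 3 or RE replicate 1 the bounds of both, and without RE replicate 3 that of SSI-7D, also passed a 2-fold decrease.

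SSIIa-7D had a higher mean in IE, but not beyond the spread of the libraries. It stood at 43.0, 17.8 and 44.4 FPKM in IE, against 24.8, 26.2 and 15.1 FPKM in RE. IE replicates 1 and 3 were above every RE library, while IE replicate 2 was below RE replicates 1 and 2. Means were 35.1 ± 15.0 FPKM for IE and 22.0 ± 6.04 FPKM for RE (SD, n = 3 each). This was a log2 fold change of 0.60 with a 95% interval from -0.33 to 1.52 (standard error 0.40, limma adjusted p = 0.654). TraesCS7A01G189100 stood at 0.917, 0.468 and 1.50 FPKM in IE, against 0.807, 1.20 and 1.37 FPKM in RE. It did not separate the regions (log2 fold change -0.30, standard error 0.43, limma adjusted p = 0.851). Its lowest value rests on 17 fragments, for which the exact 95% Poisson interval, covering counting error only, is 0.273 to 0.749 FPKM.

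Of the SSIIIa genes, 1A and 1B had higher means in IE and 1D had similar means, none of them beyond the spread. SSIIIa-1A stood at 7.22, 2.79 and 9.33 FPKM in IE, against 4.15, 5.12 and 3.07 FPKM in RE (log2 fold change 0.50, standard error 0.44, limma adjusted p = 0.740). SSIIIa-1B stood at 1.38, 0.582 and 1.70 FPKM in IE, against 0.580, 0.842 and 0.577 FPKM in RE (log2 fold change 0.69, standard error 0.43, limma adjusted p = 0.630). In both, IE replicates 1 and 3 lay above all RE libraries and IE replicate 2 lay among or below them. SSIIIa-1D stood at 2.40, 1.12 and 3.70 FPKM in IE, against 1.61, 3.06 and 1.66 FPKM in RE (log2 fold change 0.09, standard error 0.45, limma adjusted p = 0.962). RE replicate 2 was the only RE library above IE replicate 1 for this gene. The 95% intervals of SSIIa-7D, TraesCS7A01G189100 and all 3 SSIIIa genes include a 2-fold difference, which is thus not excluded for them.

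IE replicate 2 weighed on all of these values. Without it, SSI-7B, SSIIa-7D, SSIIIa-1A and SSIIIa-1B were higher in both remaining IE libraries than in every RE library, which held for 9.16% of all genes. The log2 fold changes were then 1.03 for SSIIa-7D, 1.01 for SSIIIa-1A and 1.11 for SSIIIa-1B, with limma adjusted p-values of 0.111, 0.119 and 0.154. These 3 genes passed an unadjusted p of at most 0.05 and the 2-fold change, as did 1.75% of all genes in the direction of IE, and 0 of the 8 passed the adjusted p. All 8 genes had their lowest IE value in the library left out, against 25.9% of all genes. Leaving it out thus had to raise IE for each of the 8, and the shares of all genes are no test of them. For SSI-7A, SSI-7B and SSI-7D the log2 fold changes without that library were 0.02, 0.31 and 0.08, and for SSIIIa-1D the change was 0.54. When any other single library was left out, SSIIa-7D ranged from 0.35 to 0.74, SSIIIa-1A from 0.16 to 0.67 and SSIIIa-1B from 0.41 to 0.85. The lowest of these values came without RE replicate 3 for SSIIa-7D and without IE replicate 3 for both SSIIIa genes.

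**Figure D2:**
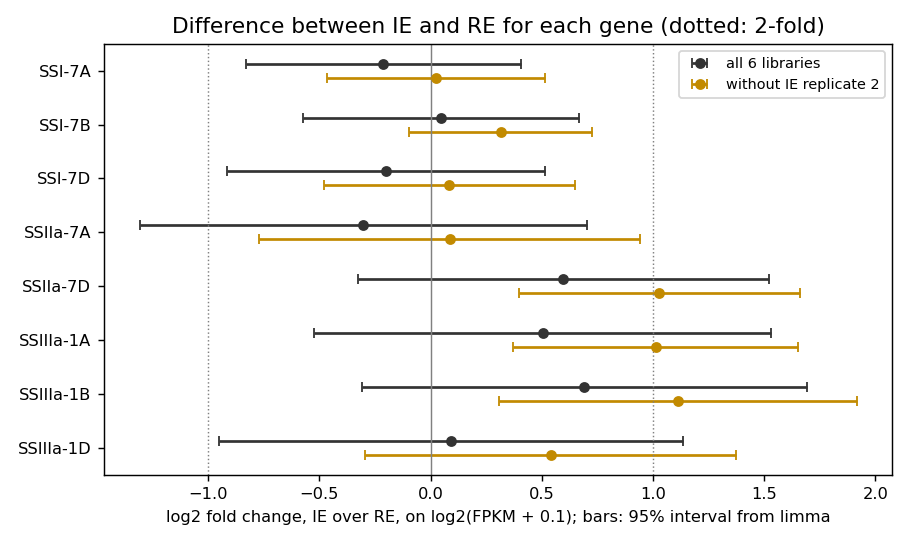
Log2 fold change of IE over RE (horizontal axis) for each starch synthase gene, with all 6 libraries and without IE replicate 2; bars are 95% intervals from limma and dotted lines mark a 2-fold difference. All 8 intervals with all libraries include 0, and without IE replicate 2 those of SSIIa-7D, SSIIIa-1A and SSIIIa-1B lie above 0, while their adjusted p-values are 0.111 or more. The row named SSIIa-7A is TraesCS7A01G189100.

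Ratios between the enzymes within a library are free of the scaling of libraries. For every 100 FPKM of summed SSI there were 19.3, 14.4 and 21.6 FPKM of SSIIa-7D in IE, against 14.8, 11.9 and 7.99 FPKM in RE. The only overlap was IE replicate 2, which lay just below RE replicate 1. For SSIIIa there were 4.93, 3.63 and 7.15 FPKM per 100 FPKM of SSI in IE, against 3.80, 4.10 and 2.81 FPKM in RE. IE replicate 2 again lay among the RE libraries, and IE replicates 1 and 3 were above them. SSIIa-7D stood at 3.91, 3.96 and 3.01 times the summed SSIIIa in IE, against 3.91, 2.90 and 2.84 times in RE, so this ratio overlapped. These ratios were formed from genes chosen with results known and are given without a test.

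**Figure D3:**
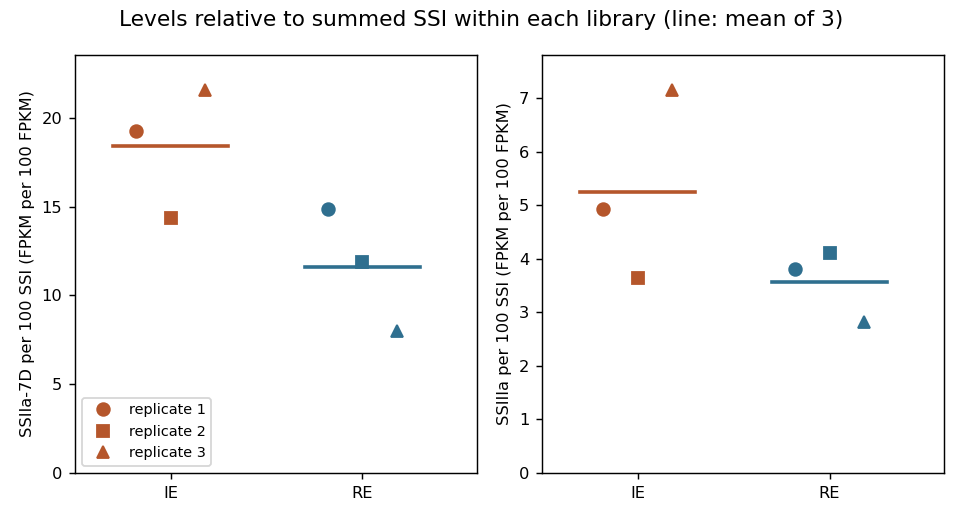
Level of SSIIa-7D (left) and of summed SSIIIa (right) per 100 FPKM of summed SSI, with 1 marker per library and the mean of 3 as a line. SSIIa-7D lies between 14.4 and 21.6 in IE and between 7.99 and 14.8 in RE, and SSIIIa between 3.63 and 7.15 in IE and between 2.81 and 4.10 in RE.

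The homoeologs of an enzyme were unequal in level. Ratios here are of FPKM + 0.1, as geometric means over the libraries. SSI-7B was 1.57 times SSI-7D (range 1.28 to 1.85) and 1.72 times SSI-7A (range 1.39 to 2.07). SSI-7D was only 1.09 times SSI-7A (range 1.02 to 1.17). The order was thus B, D, A for SSI. SSIIIa-1A was 2.24 times SSIIIa-1D (range 1.65 to 2.93) and 5.10 times SSIIIa-1B (range 4.24 to 6.24). SSIIIa-1D was 2.28 times SSIIIa-1B (range 1.69 to 3.35). For SSIIIa the order was A, D, B, another one than for SSI. SSIIa-7D was 24.4 times TraesCS7A01G189100 (range 10.3 to 42.4), with the doubt about that entry stated above. Each of these 7 differences had the same direction in 6 of 6 libraries (two-sided exact sign-flip permutation test on log2(FPKM + 0.1), p = 0.03125, the smallest that 6 libraries allow, and 0.03125 after Benjamini-Hochberg adjustment over the 7). The test takes the 6 libraries as independent, although IE and RE are parts of the same grain sections and may share a replicate. With 3 independent units this test cannot give less than 0.25. Ratios within SSI, and those within SSIIIa, are also linked, so the 7 are not separate evidence.

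The size of the SSI-7B lead depends on the length used. SSI-7B had the shortest gene length of the SSI copies, and a shorter length gives more FPKM for the same fragments. In fragments alone, SSI-7B was 1.25 times SSI-7D (range 1.02 to 1.47) and 1.39 times SSI-7A, still the higher in 6 of 6 libraries. RE replicate 2 had 2667 fragments of SSI-7B, 2618 of SSI-7D and 2201 of SSI-7A, so there the lead over SSI-7D was small. How fragments matching several homoeologs were counted is not given in the sources used here, and the levels of near-identical copies are uncertain to that extent.

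Within SSI, the balance of the homoeologs overlapped between the regions. SSI-7B made up 47.3 ± 2.04% of the summed SSI in IE and 43.0 ± 4.42% in RE (SD, n = 3 each). SSI-7D made up 27.6 ± 1.46% in IE and 29.8 ± 3.08% in RE, and SSI-7A 25.1 ± 1.17% in IE and 27.3 ± 1.54% in RE. Within SSIIIa, shares of 1B and 1D did not overlap between the regions. The 1B share was 12.6%, 13.0% and 11.6% in IE, against 9.15%, 9.34% and 10.9% in RE. The 1D share was 21.8%, 24.9% and 25.1% in IE, against 25.5%, 33.9% and 31.3% in RE. IE replicate 2 lay with the other IE libraries in both of these shares. They were given no test, and how often such shares separate for other homoeologs was not computed. The 3 SSIIIa shares of a library sum to the whole, so those of 1B and 1D are linked. With 3 libraries against 3 a two-sided exact permutation test cannot give less than 0.1. The 1B share rests on 65 to 122 fragments in IE and on 53 to 82 in RE. Its 95% Wilson intervals as a share of fragments, which cover counting error only, overlapped between IE replicate 3 (10.2% to 14.2%) and RE replicate 3 (8.93% to 14.2%). Those of the 1D share overlapped more, with 22.6% to 27.9% in IE replicate 3 and 22.1% to 29.3% in RE replicate 1. The separation within each of these pairs of libraries is thus within counting error. For 1D, the interval of RE replicate 2 (30.9% to 37.3%) lay above those of all 3 IE libraries. That of RE replicate 3 (27.6% to 35.4%) lay above that of IE replicate 1 only (19.3% to 24.7%). The 1A share was 63.7 ± 1.74% in IE and 60.0 ± 4.72% in RE (SD, n = 3 each) and overlapped.

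**Figure D4:**
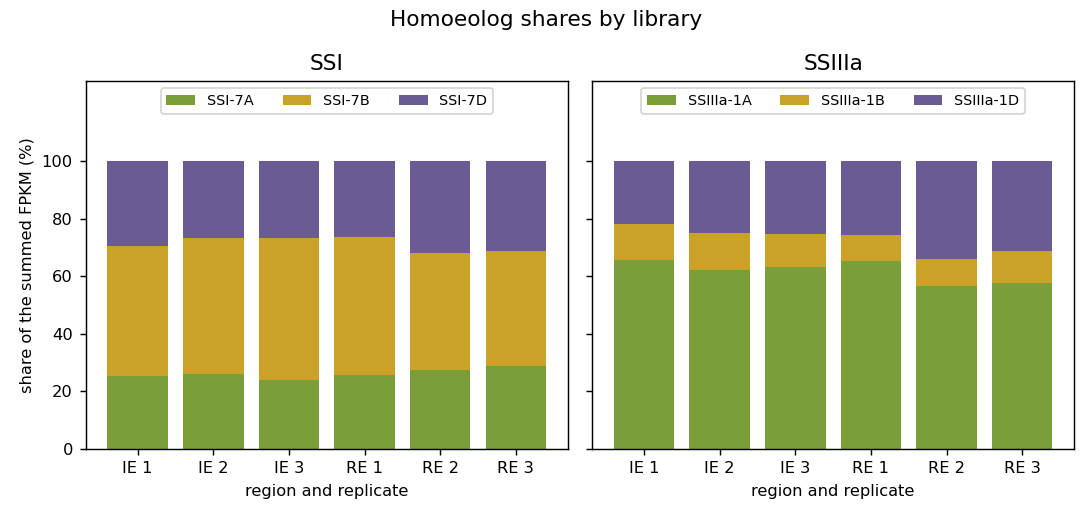
Share of each homoeolog in the summed FPKM of SSI (left) and SSIIIa (right), as stacked bars for each IE and RE library. SSI-7B takes from 40.0% to 49.5% of SSI and SSIIIa-1A from 56.7% to 65.6% of SSIIIa. SSIIIa-1D takes at most 25.1% in IE (replicate 3) and at least 25.5% in RE (replicate 1). The gap between these libraries is within counting error.

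Profiles over the 6 libraries were compared by the root mean square difference of log2(FPKM + 0.1), each profile centred on its own mean, among 13098 other genes, which had 5 FPKM or more on average or were starch synthases of the list. SSI-7A and SSI-7D were alike, with a difference of 0.08, which ranked 2 among the genes most like SSI-7D and 8 among those most like SSI-7A. SSI-7B was less like them, at 0.19 from SSI-7A and 0.22 from SSI-7D. The gene most like SSIIIa-1A was SSIIa-7D, at 0.16, ahead of its own homoeologs SSIIIa-1B (0.18, rank 3) and SSIIIa-1D (rank 72). In turn, SSIIIa-1A ranked 6 among the genes most like SSIIa-7D. TraesCS7A01G189100 was far from SSIIa-7D (0.64, rank 4760), and so was TraesCS7A01G189000 (0.57, rank 3093). TraesCS7B01G093800 was close to SSIIa-7D (0.17, rank 8), but it was picked for its length and this closeness, so the rank says nothing about what it is. These are descriptions with no test, over the same 6 libraries for every gene.

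The genes outside the list whose profiles were most like the summed SSI were TraesCS5B01G469200, TraesCS4B01G282300 and TraesCS6A01G152700, with root mean square differences of 0.06, 0.07 and 0.07. For the summed SSIIa they were TraesCS1D01G221200, TraesCS5A01G557600 and TraesCS4B01G100800, with differences of 0.08, 0.11 and 0.11. TraesCS1D01G221200 was itself abundant, with 188, 85.6 and 181 FPKM in IE against 117, 117 and 70.4 FPKM in RE. For the summed SSIIIa they were TraesCS7B01G183300, TraesCS7B01G034600 and TraesCS7A01G070100, with differences of 0.17, 0.19 and 0.20. TraesCS7A01G070100 had 311, 122 and 315 FPKM in IE against 188, 286 and 170 FPKM in RE, and so shared the low value of IE replicate 2. The search covered 13091 candidates over 6 libraries, and the annotation at hand gives these genes no names.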

How the data were processed

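RNA of 3 IE and 3 RE libraries was sequenced. Per the study's methods, reads passed the Illumina filter and fastp and were aligned by HISAT2 to Chinese Spring wheat, given as IWGSC1_popseq.31. FPKM values of every gene in each library were deposited by the authors. Which tool counted fragments, and whether it used strand, is not given in the sources used here. Whole fragments, gene lengths and library totals were recovered from the steps of the FPKM values (tolerance 0.02 of a fragment), and they gave the depth. FPKM does not remove a shift in composition. The share of the summed FPKM in the 100 most abundant genes ran from 52.5% in IE replicate 2 to 62.8% in IE replicate 3. These were also the deepest and the shallowest library.

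The regions were compared by limma 3.58.1 (R 4.3.3, lmFit and eBayes with trend) on log2(FPKM + 0.1), a scale that understates changes of weakly expressed genes. Tested genes averaged 0.5 FPKM or more. The limits were 0.05 for the Benjamini-Hochberg adjusted p and 1 for the size of the log2 fold change. Recovery and fit were tested on simulated data. Homoeologs were compared within libraries by exact sign-flip tests, and sums over genes got no test. Other steps ran in Python 3.11.15 with scipy 1.17.1, pandas 2.3.3 and numpy 2.4.6, and plots with matplotlib 3.10.9.

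The genes named are the 8 members and, for each enzyme, the 3 genes of 5 FPKM or more that were most alike in profile. The members and lists were chosen with earlier results of these data known. Other pathway genes were not listed, because 0 of the 8 identifiers matched the reference table at hand (IWGSC CS RefSeq v2.1), and no sequences are shown. Alternatives changed the pseudocount, filter, scaling, trend, block or test, or left out a library. The use of fragments without length for the homoeologs was added after the data were seen.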

Additional observations from a re-analysis of the deposited data

How the results depend on the processing

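Between IE and RE, 0 genes passed the adjusted p under any alternative that keeps it, while 2980 passed with the unadjusted p and the 2-fold limit. The smallest adjusted p over all genes lay between 0.0566 (without IE replicate 2) and 0.628. With the unadjusted p and the 2-fold limit the count was 1437 with a pseudocount of 1, 4821 with no filter, 696 at 5 FPKM or more and 5161 without IE replicate 2. The direction of SSI-7B turned with TPM scaling, to -0.00024. Median-ratio scaling put the median of all genes at 0.01, with 1318 genes higher and 1873 lower in IE by the unadjusted p and the 2-fold limit, against 850 and 2130 as deposited, and turned no direction among the 8 genes. Leaving out single libraries gave log2 fold changes from -0.38 to 0.023 for SSI-7A, -0.089 to 0.31 for SSI-7B, -0.41 to 0.084 for SSI-7D, -0.66 to 0.086 for TraesCS7A01G189100 and -0.28 to 0.54 for SSIIIa-1D. SSIIa-7D, SSIIIa-1A and SSIIIa-1B kept their direction, and the summed SSI ranged from -0.26 to 0.17, SSIIa from 0.33 to 0.99 and SSIIIa from 0.07 to 0.92. Of the 7 homoeolog differences, 0 passed within the 3 IE libraries, within the 3 RE libraries or with 1 library left out, where the smallest possible exact p is 0.25 or 0.0625, and all kept their direction. Equally numbered libraries did not deviate together more than others (correlations of 0.11, 0.06 and -0.20 over genes, against -0.24 to 0.25 for unequal numbers). With 3 libraries per region, this cannot decide whether the numbers pair them. With the replicate block, SSIIa-7D kept its log2 fold change of 0.60 with a limma adjusted p of 0.714, the count by unadjusted p and 2-fold change was 3357, and the lower bound of SSI-7D passed a 2-fold decrease (-1.06). Depth limits TraesCS7A01G189100 and SSIIIa-1B most. SSIIIa-1B, SSIIIa-1D and TraesCS7A01G189100 are not among genes of 5 FPKM or more.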
